A study of Mus musculus with 2 samples.

Results

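The respiratory chain and the ATP synthase of the inner mitochondrial membrane were examined gene by gene in sorted mouse CD4 T cells. Members were the genes on the array whose names begin with Nduf, Uqcr, Cox4, Cox5, Cox6, Cox7, Cox8 or Atp5, together with Sdha, Sdhb, Sdhc, Sdhd and Cycs. This choice by name gave 91 genes of 27665 named genes, read by 137 of the 55681 noncontrol probes. Of these genes, 87 were well above background on both arrays and are called measured, as were 14375 named genes in all. Cox4nb entered by its old name only. It is now Emc8, a subunit of a protein insertion complex of the endoplasmic reticulum, and it is counted here but belongs to no respiratory complex.

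RNA came from spleen CD4+ T cells of female OVA-TCR-Tg mice, whose transgenic T cell receptor recognises ovalbumin (OVA), sorted after 24 h of culture with 0.1 mg/mL OVA. The co-culture combined naive spleen cells with as many spleen cells that had been stimulated beforehand with 0.1 μg/mL TSST-1, a bacterial superantigen, and that are labelled anergic, meaning poorly responsive. The naive-only culture held spleen cells at 2500000 cells/mL that had no such stimulation. The naive cells were at a lower density in the co-culture, so their density differed between the cultures as well as the company of pre-stimulated cells. Whether the total cell density also differed is not stated here. Nothing in the labels tells whether naive and pre-stimulated cells were separated in the sort, nor how many mice were used, so the co-culture RNA may be a mixture of both. With 1 single-colour array for each culture, there is no replicate check and no test, and every difference below compares 2 RNA preparations.

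As background, the respiratory chain passes electrons from NADH (complex I) and succinate (complex II) through ubiquinone to complex III, then through cytochrome c to complex IV, which reduces oxygen. Complexes I, III and IV pump protons out of the matrix, and the ATP synthase lets them back in through its membrane rotor (Fo) to drive ATP formation in its matrix head (F1). T cells that are activated by antigen build up both this machinery and glycolysis as they grow. Most subunits are encoded in the nucleus, and a small set is encoded in mitochondrial DNA.

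Levels are log2 of the processed signal relative to the array's 75th percentile, and differences are co-culture minus naive-only. The value after ± is the scanner software's technical error of a difference. It was close to 0.20 for nearly all members because the software's error model sets it, and it leaves out the variation between cultures. On the co-culture array 45.1% of probes were well above background, against 46.2% on the naive-only array. The defining T cell genes were detected on both: Cd4 was at 5.90 on the co-culture array and 5.54 on the naive-only array, and Cd3e at 6.48 and 6.11 on the same arrays.

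The members as a whole lay slightly lower on the co-culture array and moved within a narrow band. Of the 87 measured members, 60 had a difference below 0, against 54.4% of all measured genes, and the median difference was -0.14, against -0.05 over all measured genes. With quantile normalization and in the authors' deposited table, 54 of the 87 were below 0. The member median was then -0.07, against -0.03 over all measured genes, so the shift is small and depends on the scaling. The middle 50% of differences ran from -0.27 to 0.03 for members and from -0.37 to 0.33 for all genes. For 45 members the difference was smaller than its technical error, as it was for 4882 of the 14375 genes in all. No member was at least 2-fold higher, where 7.72% of all measured genes were, and 1 was at least 2-fold lower, where 5.53% of all genes were. At 1.5-fold, 2 members were higher and 4 lower, against 15.2% and 14.4% of all genes in the same directions. The brighter genes, whose mean level is above the median of measured probes, include 83 members. Of these, 59 had a difference below 0, against 57.8% of all brighter genes. Their median was -0.14, against -0.08 over all brighter genes. At 2-fold, none of these 83 was higher and 1 was lower, against 5.84% and 3.1% of the brighter genes in the same directions. At 1.5-fold, 2 were higher and 3 lower, against 12.3% and 12.1%. In sorted cell pools, fewer cells of a type and less RNA per cell cannot be told apart, and scaling to each array's 75th percentile removes any change that all transcripts share.

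**Figure D1:**
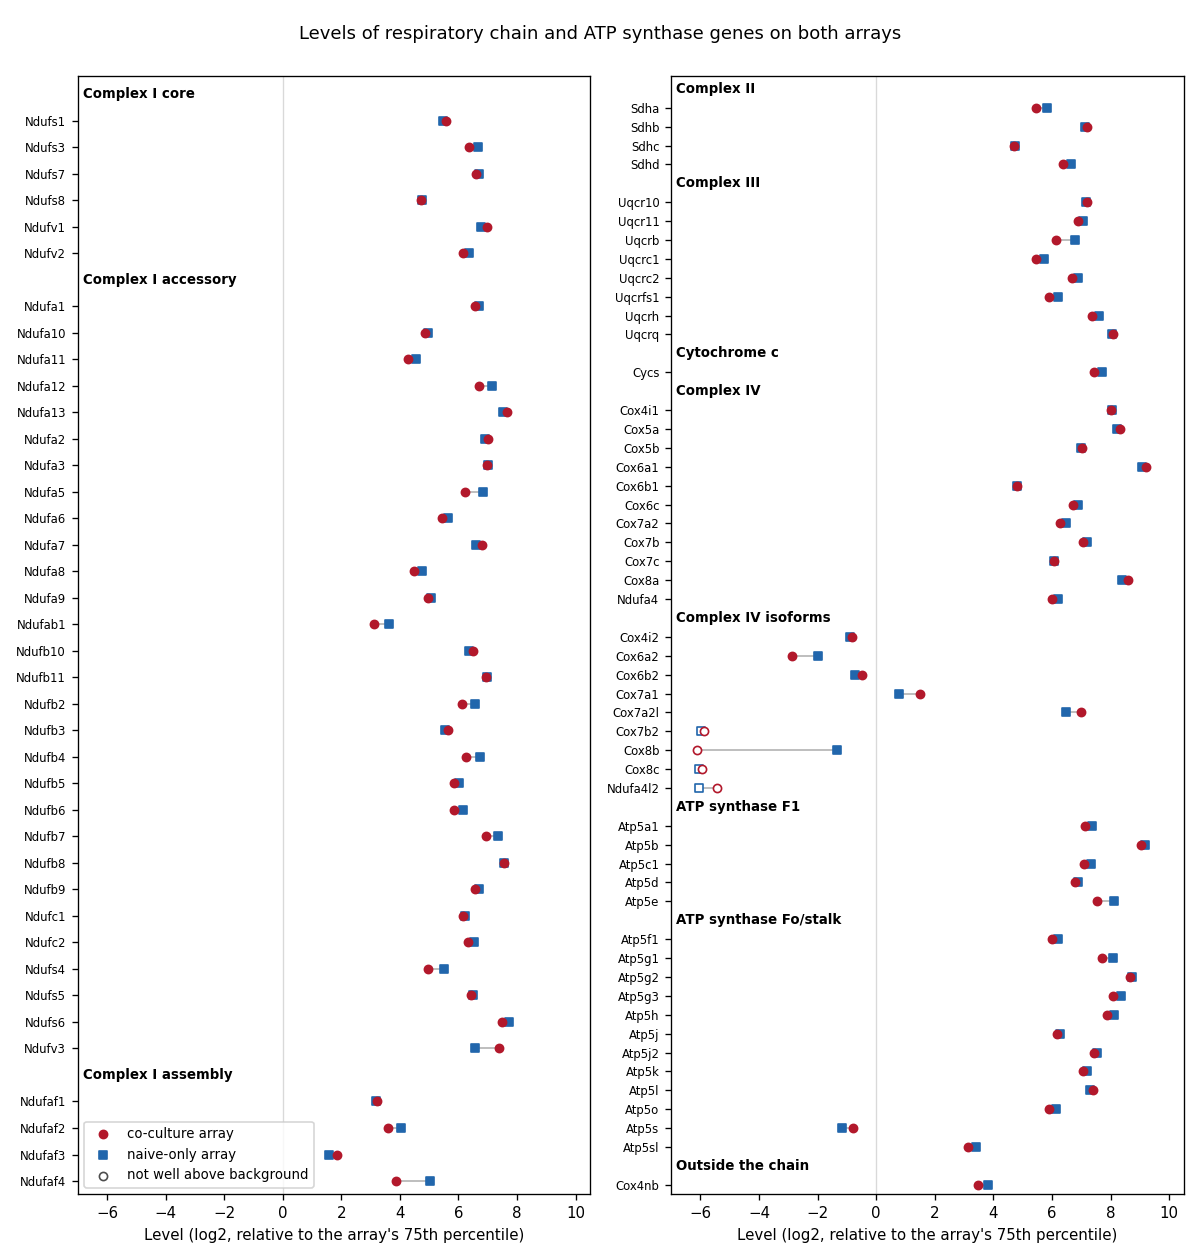
Level of the member genes, apart from 1 that is not reported by name, on the co-culture array (red circles) and the naive-only array (blue squares), in log2 units relative to the array's 75th percentile and grouped by complex; open symbols mark a probe that is not well above background on that array. For most genes the pair of symbols overlaps or nearly so, and Ndufaf4, Ndufv3, Cox6a2 and Cox7a1 are among the visibly separated pairs, as is Cox8b, which was detected on the naive-only array only.

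The catalytic and core subunits of complex I, which carry the flavin and the iron-sulfur clusters, were nearly level between the arrays. All 7 nucleus-encoded core genes were measured, 4 had a difference below 0, 6 were within their technical error and none reached 1.5-fold. Here and for the complexes below, the same counts over all measured genes were 54.4% below 0 and 4882 of 14375 within technical error. Ndufv1, which binds NADH and the flavin, was at 6.96 on the co-culture array and 6.77 on the naive-only array. Ndufs1, the large iron-sulfur subunit of the NADH-oxidising arm, was at 5.57 and 5.49 on the same arrays. These differences were 0.19 and 0.09, each smaller than the technical error. The iron-sulfur proteins Ndufs7 (-0.11), Ndufs8 (-0.03) and Ndufv2 (-0.19) were also within it. Ndufs3, a scaffold of the matrix arm, was the exception, at 6.37 on the co-culture array and 6.67 on the naive-only array, a difference of -0.31 ± 0.20. The group median was -0.03, and it changed sign to 0.02 with quantile normalization and in the authors' deposited table.

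Accessory subunits of complex I, which surround the core and are needed for its assembly and stability, were more often lower. Of 29 measured genes, 22 had a difference below 0 and 14 were within their technical error, and the median was -0.14. Ndufa5, a subunit of the matrix arm, was at 6.23 on the co-culture array and 6.84 on the naive-only array, 1.53-fold lower, and its other probe gave -0.77. Ndufs4, whose loss in mice causes a fatal encephalopathy, was at 4.94 on the co-culture array and 5.49 on the naive-only array. Ndufab1, the mitochondrial acyl carrier protein, was at 3.13 on the co-culture array and 3.63 on the naive-only array. Both fell short of 1.5-fold, at -0.55 and -0.50. Ndufb4, Ndufb2, Ndufa12 and Ndufb7, which are small structural subunits, came next, with differences between -0.50 for Ndufb4 and -0.42 for Ndufb7. At the other end, 7 accessory genes were above 0, and 5 of them, between 0.01 for Ndufb8 and 0.14 for Ndufb10, were within their technical error. Ndufa7 was at 0.23, just past it, and Ndufv3 stood apart.

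Ndufv3, a small subunit beside the NADH-binding site that is made in a short and a long form, was the highest of all 87 measured members. Its brightest probe read 7.38 on the co-culture array and 6.58 on the naive-only array, a difference of 0.80 ± 0.20, or 1.75-fold. The array carries 3 probes for it, and all were positive but not equal. The brightest probe matches both RefSeq transcripts of the gene in the array's annotation. The second matches only 1 of them, and read 1.30 on the co-culture array and 0.27 on the naive-only array, a difference of 1.03. The third matches no RefSeq transcript in that annotation and read -0.30 on the co-culture array and -0.55 on the naive-only array, a difference of 0.25. Which transcript form each of these differences belongs to was not tested. The first 30 bases of each 60-base probe are given, because the finding depends on which of them is read. They lie on the plus strand of chromosome 17 (mm9), at chr17:31668209-31668268, chr17:31665148-31665207 and chr17:31663758-31663817 in that order.
Ndufv3, brightest probe: ggtagaccccgatgttggttcccatgaatc
Ndufv3, second probe: gtgccagaaggaggctcccaggtccaggag
Ndufv3, dimmest probe: aagaaaagctattgccactccctccgtcct

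The lowest measured member was Ndufaf4, an assembly factor that helps to build complex I and is no part of the finished enzyme. Its brightest probe read 3.86 on the co-culture array and 5.04 on the naive-only array, 2.27-fold lower, with a difference of -1.18 ± 0.20. The second probe lies elsewhere in the transcript and does not overlap the first. It read 2.74 on the co-culture array and 3.77 on the naive-only array, a difference of -1.03, so both probes were past 2-fold in the same direction. Both match the same RefSeq transcript and lie on the plus strand of chromosome 4 (mm9), at chr4:24829194-24829253 and chr4:24830284-24830343. Their first 30 bases show that they read separate stretches.
Ndufaf4, brightest probe: atacaagttcctgtgagttgagggccataa
Ndufaf4, second probe: catacttgcctcgagattccacgggaaaag

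Assembly factors of complex I differed among themselves. Ndufaf2, a chaperone of late assembly, was at 3.61 on the co-culture array and 4.03 on the naive-only array, a difference of -0.42. Ndufaf3, which acts together with Ndufaf4 in early assembly, was at 1.85 on the co-culture array and 1.58 on the naive-only array, a difference of 0.27, so these partners lay on opposite sides of 0. Ndufaf1, which helps to build the membrane arm, was at 0.02, within its technical error. The array lists another 4 assembly factors of complex I under older names, which the choice by gene name did not take. Of these, Ndufaf8, which stabilises Ndufaf5, was at 1.53 on the co-culture array and 2.55 on the naive-only array, a difference of -1.01. Ndufaf5 (-0.39), Ndufaf6 (-0.37) and Ndufaf7 (-0.29) were also below 0. With these the list had 8 genes, of which 6 were below 0, against 54.4% of all measured genes, with a median of -0.38. None was 1.5-fold higher, and 2 were at least 2-fold lower, against 5.53% of all measured genes. Ndufaf8 was barely past that limit, and with normexp background correction it fell short, at -0.95.

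**Figure D2:**
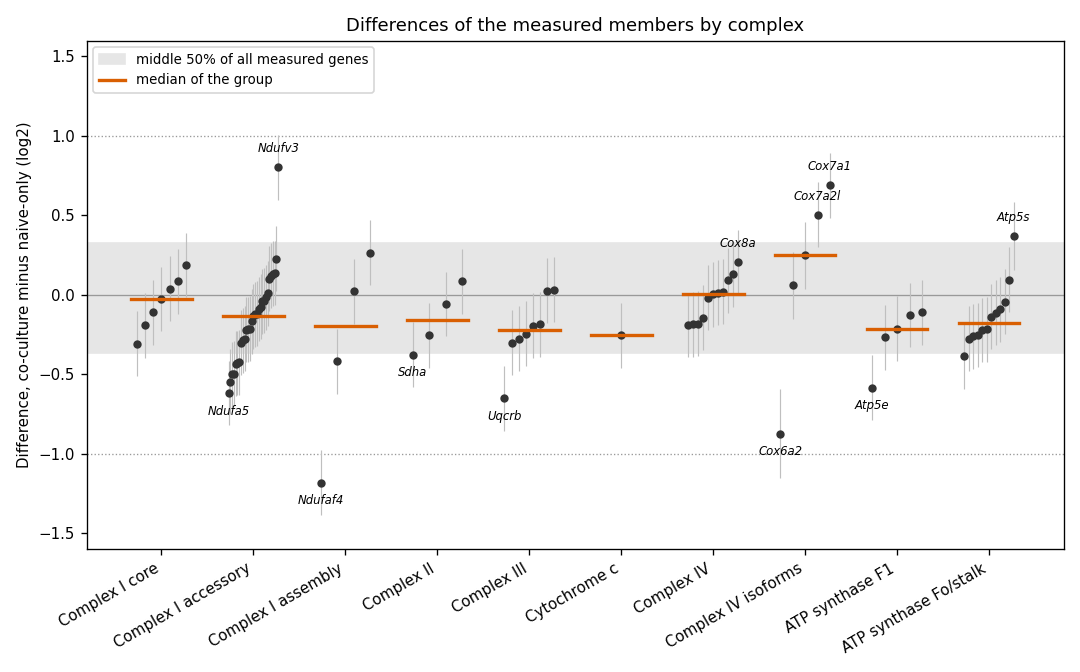
Difference (co-culture minus naive-only, log2) of each measured member apart from Cox4nb, with a point for each gene and its technical error as a vertical line; orange bars are group medians, the grey band is the middle 50% of all measured genes, and dotted lines mark 2-fold. Points lie mostly inside the band, with Ndufaf4 alone beyond a dotted line, the F1 genes all below 0 and the complex IV subunits centred on 0.

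Complex II, the only respiratory enzyme that is also part of the citric acid cycle, was slightly lower in 3 of its 4 genes, with a median of -0.16. Sdha, the flavin subunit that oxidises succinate, was at 5.46 on the co-culture array and 5.83 on the naive-only array, a difference of -0.38. Sdhd, a membrane anchor, was at 6.38 on the co-culture array and 6.63 on the naive-only array, a difference of -0.25. The other anchor, Sdhc (-0.06), and the iron-sulfur subunit Sdhb (0.08) were within their technical error. None of the 4 reached 1.5-fold.

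Complex III, which hands electrons from ubiquinol to cytochrome c, was lower in 6 of 8 genes, with a median of -0.22. Uqcrb, a small subunit next to a ubiquinone site, was the lowest, at 6.14 on the co-culture array and 6.79 on the naive-only array, 1.57-fold lower. Its 3 probes gave -0.65 to -0.55, but they overlap on the genome, so they are not independent readings. The Rieske iron-sulfur protein Uqcrfs1 was at 5.90 on the co-culture array and 6.20 on the naive-only array, a difference of -0.30. The core protein Uqcrc1 was at 5.44 on the co-culture array and 5.72 on the naive-only array, a difference of -0.28. Uqcrq and Uqcr10, small membrane subunits, were level at 0.03 each.

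The other core protein, Uqcrc2, gives a view of spot noise, because its probe is printed in 10 spots per array. The spots ranged from 6.64 to 6.72 on the co-culture array (SD 0.0298, with 2 spots marked as outliers by the software), against 6.84 to 6.93 on the naive-only array (SD 0.0347). The spots of the arrays did not overlap, and the difference of their means was -0.19. Spots of 1 array repeat the same labelled RNA, and their spread says nothing of the spread between cultures.

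Cytochrome c, encoded by Cycs, carries electrons from complex III to complex IV and also triggers apoptosis when it leaks out. It was at 7.45 on the co-culture array and 7.70 on the naive-only array, a difference of -0.25 ± 0.20. The other measured probe gave -0.58 and another was called well above background on no array, so the size of the difference depends on the probe.

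Complex IV, the oxygen-reducing enzyme, was level between the arrays in its widely expressed subunits. All 11 such genes were measured, 10 were within their technical error, 5 were below 0 and none reached 1.5-fold. Cox4i1, the common form of a regulatory subunit, was at 8.02 on the co-culture array and 8.04 on the naive-only array. Cox5a, a matrix-facing subunit, was at 8.33 on the co-culture array and 8.24 on the naive-only array. Cox5b, which binds zinc, was at 7.01 on the co-culture array and 6.99 on the naive-only array. Their differences were -0.02, 0.09 and 0.02. Cox8a was the highest of the group, at 0.20, and Cox7a2 the lowest, at -0.19. Ndufa4, first assigned to complex I and now counted with complex IV, was at -0.19 too. These values are from the brightest probe of each gene. The other Cox8a probe gave 0.32. Cox7c was at 0.01 by its brightest probe, and its other probes gave -0.24 and, for a dim one, -0.21. The group median was 0.00, and lay between -0.02 and 0.06 under the other settings.

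Forms of complex IV subunits that are known mainly from particular tissues or conditions were less uniform, and most were dim. The list had 9 genes, of which 5 were measured, and it includes Cox7a2l, which is widely expressed. Cox7a1, the heart and skeletal muscle form of a small subunit, was at 1.48 on the co-culture array and 0.79 on the naive-only array, 1.61-fold higher. Its widely expressed counterpart Cox7a2 was at 6.29 on the co-culture array and 6.48 on the naive-only array. The related Cox7a2l, a factor that joins complexes III and IV into supercomplexes, was at 7.0 on the co-culture array and 6.49 on the naive-only array. Cox7a1 and Cox7a2l thus differed by 0.69 and 0.50, and Cox7a2 by -0.19. All 3 probes of Cox7a2l were positive, between 0.37 and 0.50, but a pair of them overlaps, so they are not all independent readings.

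The muscle form Cox6a2 went the other way, at -2.86 on the co-culture array and -1.99 on the naive-only array, 1.83-fold lower, while its common counterpart Cox6a1 was at 9.21 on the co-culture array and 9.08 on the naive-only array. The Cox6a2 level on the co-culture array was not far above the lowest level well above background there (-3.90), and with normexp background correction its difference was -0.41. Cox6b2, known from testis, was at -0.47 on the co-culture array and -0.72 on the naive-only array, and its counterpart Cox6b1 differed by 0.00. Cox4i2, a form known from lung and from low oxygen, was at -0.82 on the co-culture array and -0.88 on the naive-only array. Cox6b2 was just past its technical error, at 0.25, and Cox4i2 was within it, at 0.06.

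Cox8b, the muscle form of the subunit that Cox8a encodes, was detected above background for the naive-only culture alone. Its level was -6.13 on the co-culture array, which is not well above background, and -1.33 on the naive-only array. The difference therefore has a bound, at least 5.92-fold lower, taken against the lowest level well above background on the co-culture array. It rests on 1 probe. Cox7b2, Cox8c and Ndufa4l2, forms known from testis or low oxygen, were called well above background on no array. The median of the 5 measured genes of the list was 0.25, and 0.15 without Cox7a2l.

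Of the 17 genes named for the ATP synthase, 15 were below 0, against 54.4% of all measured genes and 57.8% of the brighter ones. In the same set of 17, 7 were within their technical error, with a median of -0.21 and none at 1.5-fold. Without Atp5s and Atp5sl, which have since been renamed as other proteins, 14 of 15 were below 0 and the median was again -0.21. All 5 genes of the F1 head were below 0. Atp5a1, the alpha subunit, was at 7.11 on the co-culture array and 7.38 on the naive-only array. Atp5b, the beta subunit that holds the catalytic sites, was at 9.03 on the co-culture array and 9.16 on the naive-only array. Atp5c1, the gamma subunit that forms the rotating shaft, was at 7.10 on the co-culture array and 7.32 on the naive-only array. These differed by -0.27, -0.13 and -0.21. Atp5d, the delta subunit, was at -0.11. Atp5e, the small epsilon subunit at the foot of the shaft, had the largest difference of the enzyme, at 7.54 on the co-culture array and 8.13 on the naive-only array. At -0.58 it lay just outside the 1.5-fold limit, while Ndufa5, at -0.62, lay just inside it.

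In the membrane part and the stalk, 10 of the 12 genes listed by name were below 0, with a median of -0.18, and 9 of 10 without Atp5s and Atp5sl, with the same median. Atp5g1, Atp5g2 and Atp5g3 encode the same mature c subunit, which forms the rotor ring. Atp5g1 was at 7.70 on the co-culture array and 8.09 on the naive-only array, and Atp5g3 at 8.08 and 8.36 on the same arrays. Atp5g2 was at 8.68 on the co-culture array and 8.72 on the naive-only array. The differences were -0.39 and -0.28 for Atp5g1 and Atp5g3, and -0.04 for Atp5g2, which was within its technical error. The stalk genes Atp5o (-0.25), Atp5f1 (-0.22) and Atp5h (-0.22) lay close together, and Atp5l, a membrane subunit at the dimer contact, was at 0.10. The 6 probes of Atp5l ran from -0.10 to 0.10, so its sign depends on the probe. Another pair of small membrane proteins of the enzyme, listed on the array under older names, was outside the choice by name, with Atp5md at -0.27 and Atp5mpl at -0.51.

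Of the renamed genes, Atp5s, now Dmac2l, was the highest of those named for the ATP synthase, at -0.78 on the co-culture array and -1.15 on the naive-only array, a difference of 0.37. Atp5sl, now Dmac2, an assembly factor of the membrane arm of complex I, was at 3.15 on the co-culture array and 3.41 on the naive-only array, a difference of -0.26. Cox4nb, the gene outside the respiratory complexes, was at 3.47 on the co-culture array and 3.81 on the naive-only array, a difference of -0.34.

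Where a member had more than 1 measured probe, the probes mostly spanned less than the technical error. This held for 25 of 30 such genes, and the median SD between probes of a gene was 0.0684. The technical error is a wide limit here, because 45 of the 87 measured members had a smaller difference than it. Among the 25 were Atp5l and Atp5j2, whose probes differed in sign. In 26 of the 30 genes all probes had the same sign. Neither count was made for genes outside the members. In 10 of the 30 genes at least a pair of probes overlaps, so part of this likeness comes from shared sequence. The 5 exceptions were Ndufb11, Ndufv3, Cycs, Ndufb5 and Cox7c. Another 60 members rest on 1 probe each. By the array's own coordinates 3 probes lie on another chromosome than the gene they are named for, a pair for Atp5k on chromosome Y and 1 for Cox5b on chromosome 15. None of them represents its gene here, and the Atp5k pair gave -0.20 and -0.14, beside -0.14 for the probe at the gene itself.

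Ndufb11, an X-linked accessory subunit of the membrane arm, had the widest disagreement. Its bright probes read 6.95 and 6.67 on the co-culture array, against 6.97 and 6.73 on the naive-only array, and differed by -0.01 and -0.06. The third, dim probe read 0.14 on the co-culture array and -1.68 on the naive-only array, a difference of 1.81. The bright probes overlap at the same stretch of the gene on the minus strand of chromosome X (mm9), at chrX:20192453-20192512 and chrX:20192448-20192507. The dim probe is annotated to the same RefSeq transcript as the brightest but lies further upstream on that strand, at chrX:20194630-20194689. What the dim probe reads was not tested, and the bright probe stands for the gene. The first 30 bases of the 3 probes show that the bright pair share a run of bases that is not in the same stretch of the dim probe.
Ndufb11, brightest probe: tcatccgctgcttgttatttacctggttcc
Ndufb11, second probe: cgctgcttgttatttacctggttcctcaga
Ndufb11, dim probe: ttccctacagggccatctagatgtcaccgc

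**Figure D3:**
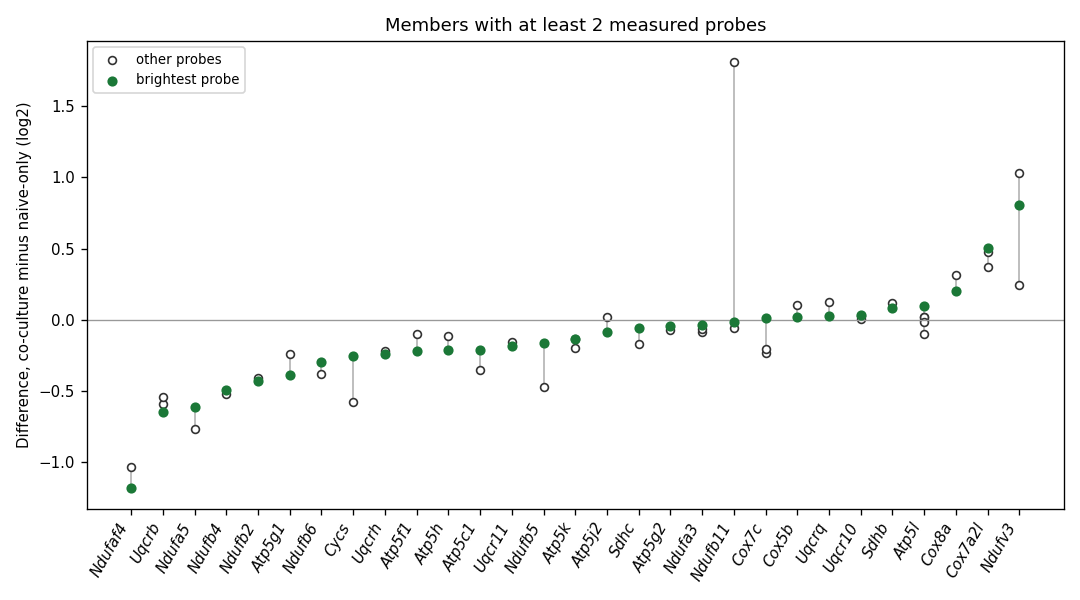
Difference (co-culture minus naive-only, log2) of every measured probe of the members with at least 2 measured probes, apart from 1 gene that is not reported by name; filled circles are the brightest probe, which stands for the gene, and open circles the others. Probes of a gene lie close together except for Ndufb11, Ndufv3, Cycs, Ndufb5 and Cox7c, and both Ndufaf4 probes are below -1.

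The subunits encoded in mitochondrial DNA, which the choice by name leaves out, gave the counterpart of the nuclear genes, and all 13 were measured. They are given in full because they assemble with the members. The complex I genes ND1, ND2, ND3, ND4, ND4L and ND5 were all below 0, between -0.55 for ND4 and -0.35 for ND1, with a median of -0.45. ND4 was at 6.91 on the co-culture array and 7.46 on the naive-only array. The median of the 36 nucleus-encoded complex I subunits was -0.12. CYTB of complex III was at 7.97 on the co-culture array and 8.35 on the naive-only array, a difference of -0.38, beside -0.22 for the median of the nuclear complex III genes.

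Complex IV was level in both genomes. COX1, COX2 and COX3, which form the core of the enzyme, differed by 0.01, -0.01 and -0.09. COX1 was at 9.66 on the co-culture array and 9.64 on the naive-only array. Of the ATP synthase genes, ATP6 was at -0.21 and ATP8 at -0.10. ND6 was the exception among the 13, at 0.89 on the co-culture array and -0.62 on the naive-only array, a difference of 1.51 ± 0.21, or 1.24 with normexp background correction. It is the only protein gene on the other strand of mitochondrial DNA, and no source used here tells whether the labelled cDNA kept strand.

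**Figure D4:**
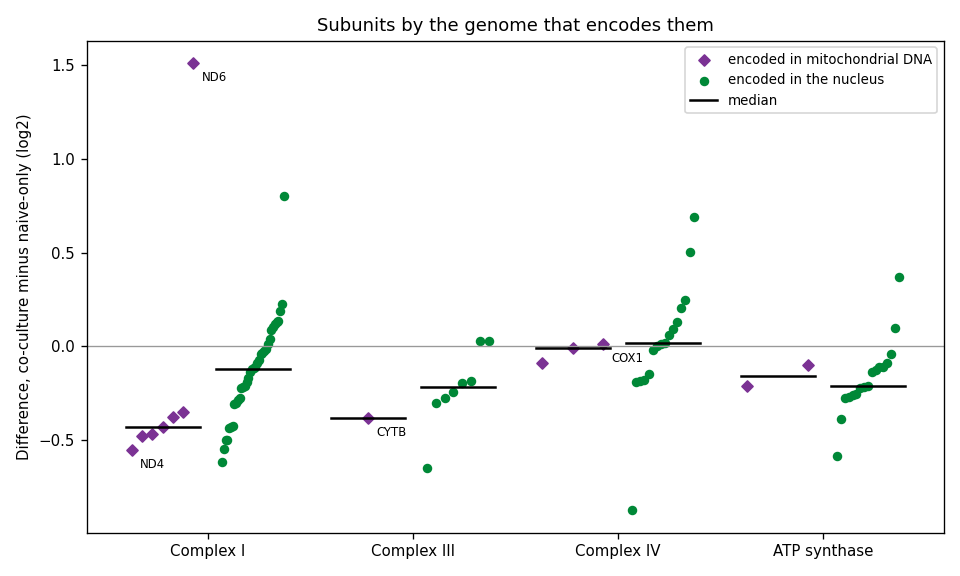
Difference (co-culture minus naive-only, log2) of the subunits of complexes I, III, IV and the ATP synthase, split by whether mitochondrial DNA (purple diamonds) or the nucleus (green circles) encodes them; black bars are medians. Complex I genes of mitochondrial DNA lie between -0.55 and -0.35 apart from ND6 at 1.51, and both complex IV sets are centred near 0. The nuclear sets also hold the renamed Atp5s and Atp5sl under the ATP synthase and the supercomplex factor Cox7a2l under complex IV.

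Genes that serve the same machinery were described in the same way, and each count stands beside the shares over all genes given above. Of 31 measured assembly factors of complexes II to V, 22 were below 0, 7 were at least 1.5-fold lower, 2 were at least 1.5-fold higher and none passed 2-fold, with a median of -0.28. The lower ones included Uqcc1 (-0.75), an assembly factor of complex III, and the copper chaperone Sco2 (-0.74) and the haem synthesis gene Cox10 (-0.74), both needed for complex IV. The higher ones were Cox17 (0.90), a copper chaperone of complex IV, and Cmc2 (0.75), another complex IV assembly factor. These 5 were picked after their values were seen. Cox17 was dim, at -1.46 on the co-culture array and -2.37 on the naive-only array.

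Of 18 citric acid cycle and pyruvate dehydrogenase genes, 12 were below 0 and none reached 1.5-fold, with a median of -0.12. Of 15 measured regulators of mitochondrial biogenesis and mitochondrial DNA expression, 4 were at least 1.5-fold lower and none higher, with a median of -0.12. Those 4, named after their values were seen, were Mterf3 (-0.75), the mitochondrial RNA polymerase gene Polrmt (-0.63) and the coactivator genes Ppargc1b (-0.62) and Pprc1 (-0.59). Ppargc1a, the best known coactivator of this programme, was called well above background on no array. The transcription factor genes Nrf1 (0.26) and Gabpa (-0.20) lay near their technical error.

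Genes known to adjust respiration when oxygen is low were mostly higher. Of 9 measured, 7 were above 0, 5 were higher by 1.5-fold or more, 3 of them by 2-fold or more, with a median of 0.64. The mitophagy receptor gene Bnip3 was at 6.29 on the co-culture array and 4.35 on the naive-only array, a difference of 1.93. Pdk1, the kinase that switches off pyruvate dehydrogenase, was at 2.61 on the co-culture array and 1.30 on the naive-only array, a difference of 1.31. Egln3, an oxygen-sensing hydroxylase gene, was at 5.25 on the co-culture array and 4.18 on the naive-only array, a difference of 1.07. Cox4i2, which is a member as well as part of this list, was at 0.06, and Ndufa4l2 was not detected above background.

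Markers of other cell types differed between the preparations. Over all measured genes, 5.53% were at least 2-fold lower and 7.72% at least 2-fold higher. At 1.5-fold these shares were 14.4% and 15.2%. Of 12 B cell markers, all 10 measured were at least 2-fold lower, and Blk and Pax5 were detected above background for the naive-only culture alone. Sums here and below take the genes above background on each array, for B cells 10 on the co-culture array and 12 on the naive-only array. On the same log2 scale the B cell sum was 3.19 on the co-culture array and 5.37 on the naive-only array. Levels of the 10 genes measured on both ran from -3.43 to 2.38 on the co-culture array and from -1.48 to 3.84 on the naive-only array. Of 7 measured class II antigen presentation genes, 6 were at least 2-fold lower, with summed levels of 5.68 on the co-culture array and 7.74 on the naive-only array. Of 10 measured myeloid and dendritic cell genes, 3 were at least 2-fold lower, with summed levels of 4.84 on the co-culture array and 4.72 on the naive-only array. Of 8 CD8 T and NK cell markers, 4 were measured and 1, Tyrobp, was past 2-fold, at -1.5. Ncr1 and Klra8 of that list were detected above background for the naive-only culture alone, and Klrd1 for the co-culture alone. Their summed levels were 0.94 on the co-culture array and 1.80 on the naive-only array. Of 3 measured erythroid markers, Hbb-bt (-1.18) and Hba-a1 (-1.09) were lower and Epor (2.42) higher, all past 2-fold, with summed levels of 0.49 on the co-culture array and 0.27 on the naive-only array. The 9 CD4 T cell genes were split, with 2 at least 1.5-fold lower, Cd5 (-0.92) and Cd28 (-0.71), and 2 at least 1.5-fold higher, Cd3d and Cd3g (0.90 each). The median of these 9 was 0.35, with summed levels of 10.2 on the co-culture array and 10.1 on the naive-only array. The part of these other cells in the differences of the members was not tested.

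Promoters were read for short words bound by factors known to control respiratory genes. RefSeq promoters (GRCm38.p6, the 300 bases around each start, 50 of them after it) were at hand for 75 member genes, with 81 promoters, and for 32851 promoters in all. Both strands were searched. The NRF1 word CGCATGCG was in 11 member promoters (13.6%), against 1.87% of all promoters. The word CCGGAAG, bound by the ETS factor GABP, was in 17 (21.0%), against 8.86% of all. The YY1 word AAGATGGC was in 12 (14.8%), against 2.75%, and the E-box CACGTG in 9 (11.1%), against 7.15%. The ETS and YY1 words can overlap where one runs into the other, and the NRF1 word and the E-box read the same on both strands. A word is a description of the letters and not a bound site.

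Members with and without these words differed little on the arrays. The median difference was -0.18 over 11 measured genes with the NRF1 word and -0.12 over 62 without it. With the ETS word it was -0.14 over 17 genes, and without it -0.14 over 56. With the YY1 word it was -0.11 over 11 genes, and without it -0.16 over 62. With the E-box it was -0.22 over 7 genes, and without it -0.13 over 66. The 11 genes with the NRF1 word were Atp5g2, Atp5j, Atp5k, Atp5l, Cox6a1, Cycs, Ndufa11, Ndufa8, Ndufaf4, Uqcr11 and Uqcrc1, and they ran from -1.18 for Ndufaf4 to 0.13 for Cox6a1. The 250 bases before the start are given for this pair, the lowest and highest of the set, and for Ndufv3, the highest member, which has none of the 4 words in its window. Capitals mark the NRF1 word and, in Cox6a1, also the ETS word on the opposite strand (CTTCCGG). The positions are chr4:24897833-24898082 on the plus strand for Ndufaf4, chr5:115348959-115349208 on the minus strand for Cox6a1 and chr17:31519865-31520114 on the plus strand for Ndufv3 (all GRCm38.p6).
Ndufaf4 promoter: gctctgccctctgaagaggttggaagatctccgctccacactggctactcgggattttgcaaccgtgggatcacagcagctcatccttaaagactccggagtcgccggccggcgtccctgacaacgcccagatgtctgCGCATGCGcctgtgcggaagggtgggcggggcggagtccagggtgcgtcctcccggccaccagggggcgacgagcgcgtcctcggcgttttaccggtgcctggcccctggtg
Cox6a1 promoter: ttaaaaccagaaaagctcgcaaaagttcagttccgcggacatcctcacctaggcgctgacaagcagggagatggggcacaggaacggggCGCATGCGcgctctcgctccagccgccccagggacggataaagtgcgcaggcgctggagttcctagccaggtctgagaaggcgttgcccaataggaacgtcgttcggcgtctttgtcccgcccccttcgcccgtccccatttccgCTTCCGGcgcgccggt
Ndufv3 promoter: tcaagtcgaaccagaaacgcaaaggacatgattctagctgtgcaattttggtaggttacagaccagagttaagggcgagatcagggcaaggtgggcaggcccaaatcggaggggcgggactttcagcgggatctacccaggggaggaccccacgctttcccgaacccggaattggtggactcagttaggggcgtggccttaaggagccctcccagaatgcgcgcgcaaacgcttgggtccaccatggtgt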

How the data were processed

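The samples were 2 RNA preparations, 1 for the co-culture and 1 for the naive-only culture, each on 1 array, with groups taken from the sample titles. Total RNA was amplified (Ovation system, per the labels' protocols), and an enzymatic kit made for genomic DNA then put Cy3 on the cDNA. Amplification can alter relative levels, an effect that single arrays do not show.

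Agilent Feature Extraction turned the scans into spot intensity, in version 10.7.1.1 per the file headers and 9.5.1.1 per the submitters' processing notes. The processed intensity is a background-subtracted linear value. The authors' deposited value table is a linear intensity with the same distribution in both columns, as quantile normalization gives. Its ranks matched the scanner values on each array (Spearman correlation 1), which settled its direction. What else was done to it is not known from the sources used here.

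Levels are log2 processed intensity, as the mean of a probe's spots, less the 75th percentile of the array's noncontrol probes (301.3 intensity units on the co-culture array and 299.4 on the naive-only array). The brightest probe over both arrays stood for a gene, which counted as measured where the software called that probe well above background on both arrays. No spot was saturated. Gene names came from the array files, updated through RefSeq where an accession matched (27229 of 36743 named probes). The 18938 unnamed probes were not used. Probes are placed on mm9 by the file headers, and no exon or UTR annotation of mm9 was used here.

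A gene above background on 1 array was given a bound against the lowest level well above background on the other. Precision is limited by the number of arrays. The members and lists were chosen with earlier results of these data known. Named members were those past 1.5-fold, the 6 highest and 6 lowest, those detected on 1 array only, and the core subunits and isoform sets whatever their value. Of these, 1 is not reported here by name, though counts and medians include it. Members named beyond these were chosen after their values were seen. Alternatives were normexp background correction, quantile normalization, scaling to the median, the deposited table, other filters on dim probes, the mean over probes, other probes and leaving out marked spots. The calculation was tested on simulated data, with shifts larger than any measured member difference and noise below the technical error. That test checks the arithmetic and says nothing of how accurate the small differences here are. Tools were Python 3.11.15, numpy 2.4.6, pandas 2.3.3, matplotlib 3.10.9, R 4.3.3 and limma 3.58.1.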

Additional observations from a re-analysis of the deposited data

How the results depend on the processing

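No paired analysis was possible because each group had 1 array, and leaving out an array was not possible for the same reason. Of the members and the genes of the other mitochondrial lists, 96 differed by more than their technical error. None of these changed sign under the 8 settings that keep 1 value per gene (values were left for 85 of the 96 with only brighter probes). All settings re-use the same 2 arrays, and the filters on dim probes leave the value of a gene as it was. A change of sign was therefore unlikely from the start, and its absence says nothing of other cultures. The member median ran from -0.15 with normexp background correction to -0.07 with quantile normalization and in the authors' deposited table. The median over all genes was -0.03 in those last settings, and -0.05 in the main values. With no filter on dim probes, 2 members were at least 2-fold lower, because Cox8b then counts, and the median of all genes was 0.11, against -0.05 with the filter. With only brighter probes, the complex IV forms had a median of 0.60, because Cox4i2, Cox6a2 and Cox6b2 then drop out. The count at least 1.5-fold lower was 3 with quantile normalization, in the deposited table and with only brighter probes, 4 in the main values and 5 with scaling to the median and with no filter. Among single genes, Cox6a2 was at -0.41 and ND6 at 1.24 with normexp background correction, and other probes gave -0.58 for Cycs and 1.03 and 0.25 for Ndufv3. The remaining values, 158 for counts and medians and 391 for single genes, stayed within the technical error or within 1.5 times the main count. For medians that limit was about 0.20, the error of a single gene, and many of the medians are themselves smaller. Such a median could reach 0 and still count as unchanged. Dim probes limit what can be said of the tissue forms of complex IV, and with 1 array per group the spread between cultures is unknown.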
